A study of Homo sapiens with 2 samples.

Results

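The genes described here are 10 members of the NF-kB system, taken by symbol from the deposited table: the 5 subunits of the REL family (NFKB1, NFKB2, REL, RELA and RELB), the inhibitors NFKBIA and NFKBIE, and the feedback targets TNFAIP3, BIRC3 and TRAF1. All 10 were found among its 46427 genes, and all 10 are among the 13665 genes whose counts in both libraries add up to 20 or more, which are called tested genes here. NK92 is an established line of human natural killer (NK) cells. PPMX-T003 is an antibody against the transferrin receptor TfR1. Exposure to PPMX-T003 lasted 6 h at 10 µg/mL, in medium with 2% human serum. The control was a dish of the same culture, which had been split after 18 h, and it was left without antibody. Polyadenylated RNA was sequenced as 1 stranded library per condition, with 46766416 counts for the control and 43178462 for PPMX-T003. The labels give both dishes the same time in culture, but the columns of the table carry the names 0 h and 6 h. That of 0 h was taken for the control dish. If the names did mean a difference in harvest time, it could not be told apart from the exposure. With 1 library per condition no difference has a replicate check and no p-value is given.

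NF-kB transcription factors are dimers of REL family proteins that are held in the cytoplasm by inhibitors of kappa B until the IKK kinases mark those inhibitors for breakdown. The dimers then bind kappa B sites and switch on genes of inflammation and survival, among them their own inhibitors and brakes, so that transcripts of these feedback genes are widely read as a sign of recent NF-kB activity. In natural killer cells the pathway is engaged by cytokines and by activating receptors.

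NK cell markers were checked against the label, and all 16 were detected. NKG7 had a deposited TPM (a level per transcript length and library total, which the authors rounded to whole numbers) of 3215 in the control and 3445 with PPMX-T003, and GZMB, which encodes granzyme B, of 1850 and 2149. GNLY, for granulysin, had 197 and 222. By a 95% interval of counting error, described below with the members, 8 of the 16 were higher with PPMX-T003 and 4 lower, beside 21.8% and 23.9% of all tested genes. The 4 lower genes, named after their values were seen, are CD2 (log2 change -0.14), KLRC1 (-0.09), NCAM1 (-0.08) and IL2RA (-0.08). Set against genes of like GC content, 5 of the 16 were higher and 1 (NCAM1) lower, beside 19.8% and 21.1% of tested genes with a GC value. KLRC1 was then at 0.04. The 16 genes summed to 4438 CPM (counts scaled to the library total) in the control and 4874 with PPMX-T003, with IL2RB as the most abundant by counts. Whether this difference has a part in the values below was not tested.

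The level of the members spanned a wide range. In the control library NFKBIA, which encodes the inhibitor IkBα, stood highest with a TPM of 72, followed by RELA (70), the p65 subunit that carries a transactivation domain, and NFKB1 (60), the precursor of p50. TRAF1 (21), an adaptor of TNF receptors, and BIRC3 (20), the ubiquitin ligase cIAP2, came next. NFKB2 (14), the precursor of p52 in the non-canonical pathway, NFKBIE (10), for IkBε, and RELB (8), the partner of p52, were lower. REL, for c-Rel, and TNFAIP3, for the ubiquitin-editing brake A20, had a TPM of 6 each. Neighbours that differ by 1 or 2 units in this order cannot be ranked, because there is 1 library and the values are rounded. NFKBIA had a higher TPM than 81.0% of tested genes and REL than 32.6%. NFKB1, RELA and REL together had a TPM of 136 in the control and 139 with PPMX-T003, against 22 and 23 for NFKB2 and RELB. With PPMX-T003 the 3 highest were RELA (76), NFKBIA (70) and NFKB1 (58). No change of order is stated, because NFKBIA and RELA cannot be ranked in the control.

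**Figure D1:**
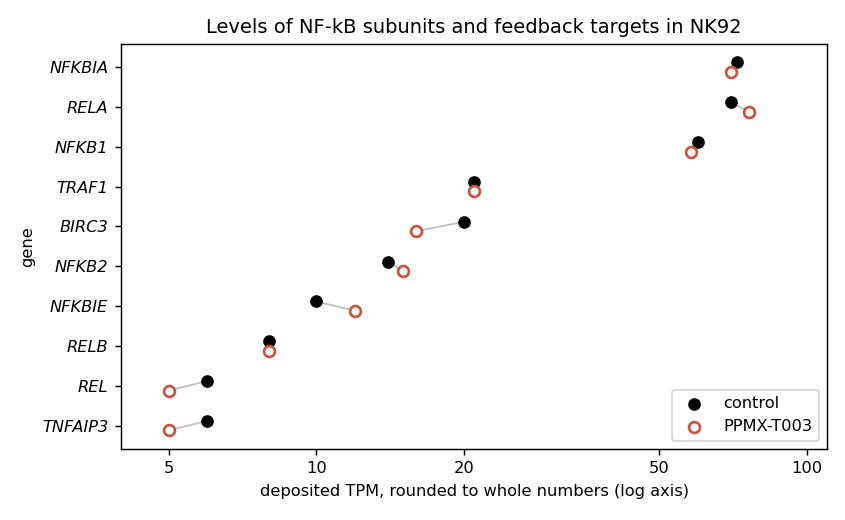
Deposited TPM (log axis) of the 10 genes in the control library (filled) and the PPMX-T003 library (open), 1 library each. NFKBIA, RELA and NFKB1 lie between 58 and 76 in both libraries, and the other genes at 21 or less.

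REL was the only member that differed by at least 0.32 on the log2 scale, the threshold used throughout, and it was lower with PPMX-T003. Of the 10 members, 0 were higher and 1 was lower past this threshold. REL was short of it with the deposited TPM (-0.22) and relative to genes of like GC content (-0.30). With the deposited FPKM 2 members were lower past it, REL and TNFAIP3, each with a rounded value of 3 in the control and 2 with PPMX-T003. Among all tested genes 9.37% (1280 of 13665) were higher and 9.48% (1295 of 13665) lower by the same measure. Among the 10419 genes with at least 200 counts, a level that all 10 members reach, 358 (3.44%) were higher and 453 (4.35%) lower. The median log2 change of the members was 0.04, beside -0.0020 for all tested genes. It turned to -0.02 with the deposited TPM and to -0.03 relative to genes of like GC content, so no direction is given for the members as a group. A log2 change compares CPM after TMM scaling with a prior count of 2, and its 95% Clopper-Pearson interval covers counting error only, not differences between dishes. By that interval 4 members were higher (NFKB2, RELA, NFKBIE and TRAF1), 2 were lower (REL and BIRC3) and 4 held 0. Of all tested genes 2983 (21.8%) were higher and 3262 (23.9%) lower by the interval. Among genes with at least 200 counts these were 2682 (25.7%) and 2980 (28.6%). The members summed to 418.9 CPM in the control and 418.3 CPM with PPMX-T003.

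Among the subunits, REL (NCBI Gene 5966, chr2:60881574-60931612 in GRCh38.p14) had 1424 counts in the control and 1000 with PPMX-T003. Its CPM went from 30.4 to 23.2, a log2 change of -0.39 (interval -0.51 to -0.28). REL is best known from lymphoid cells. Among genes with at least 200 counts, 2.4% had a lower log2 change than REL, and the central 95% of their changes ran from -0.39 to 0.36. In GENCODE release 29, 43.3% of the exon bases of REL also belong to a non-coding RNA on the same strand, but the counts rest on a RefSeq annotation, and whether reads of REL were divided was not tested. NFKB2 (4791, chr10:102394110-102402529) had 888 and 954 counts, a log2 change of 0.22 (0.09 to 0.35). RELA (5970, chr11:65653601-65663857) had 3659 and 3772 counts, a log2 change of 0.16 (0.10 to 0.23). These 2 subunits were higher beyond counting error, but not relative to genes of like GC content, where NFKB2 was at 0.12 and RELA at 0.06 (described below). NFKB1 (4790, chr4:102501359-102617302), with 5051 and 4664 counts, was at 108 CPM in both libraries, a log2 change of 0.0023 (-0.06 to 0.06). RELB (5971, chr19:45001464-45038192), with 368 and 357 counts, had a log2 change of 0.07 (-0.14 to 0.29), not detectable at this depth.

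Of the 2 inhibitors NFKBIE was higher and NFKBIA was not. NFKBIA (4792, chr14:35401513-35404749), whose protein is resynthesised quickly after NF-kB activation, had 2354 counts in the control and 2177 with PPMX-T003, which is 50.3 and 50.5 CPM. Its log2 change was 0.0045 (-0.08 to 0.09), and a log2 change above 0.09 lies outside counting error. NFKBIE (4794, chr6:44258166-44265551) had 513 and 582 counts, 11.0 and 13.5 CPM, a log2 change of 0.30 (0.13 to 0.47). The intervals of these inhibitors do not overlap, but relative to genes of like GC content they do (-0.12 to 0.05 for NFKBIA and 0.03 to 0.38 for NFKBIE), and the difference between the genes was not tested.

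Of the other feedback targets, BIRC3 (330, chr11:102317484-102339403) had 2873 counts in the control and 2194 with PPMX-T003, from 61.4 to 50.8 CPM. Its log2 change was -0.27 (-0.35 to -0.19), short of the threshold. TNFAIP3 (7128, chr6:137866349-137883312) had 611 and 512 counts, a log2 change of -0.14 (-0.31 to 0.03), which is within counting error. With the rounded deposited measures it was at -0.22 (TPM 6 and 5) and -0.415 (FPKM 3 and 2), the latter past the threshold. Each of these values rests on a step of 1 rounded unit. TRAF1 (7185, chr9:120902393-120929171) had 1866 and 1837 counts, 39.9 and 42.6 CPM, a log2 change of 0.09. Its interval ran from 0.0009 to 0.19 and holds 0 under library size and median-of-ratios scaling and relative to genes of like GC content (0.05, -0.04 to 0.14).

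The log2 changes of the members followed the GC content of their transcripts. REL (41.1% GC) and BIRC3 (38.5%) have the lowest GC content and were lower, while NFKB2 (61.2%), NFKBIE (61.0%) and RELA (60.2%) were higher. RELB has the highest GC content (65.3%), and its log2 change of 0.07 has an interval that holds 0. Pearson's r between GC content and log2 change was 0.89 and Spearman's rho 0.84 across the 10 members. Across the 79 other pathway genes with at least 200 counts r was 0.60 and rho 0.66. Across 9926 genes of the whole table with as many counts r was 0.40 and rho 0.485. These are relations across genes of the same pair of libraries, and genes are not independent replicates. When the tested genes were divided into 10 groups of like size by GC content, the median log2 change went from -0.13 in the group with the lowest GC content to 0.12 in that with the highest. When the median of its own group was subtracted, REL was at -0.30 (-0.42 to -0.18), BIRC3 at -0.15 (-0.23 to -0.07) and NFKBIE at 0.20 (0.03 to 0.38), whose intervals still left out 0. The intervals of NFKB2 (-0.0088 to 0.26), RELA (-0.0009 to 0.13) and TRAF1 (-0.04 to 0.14) then held 0. By this measure 1 member was higher and 2 were lower, beside 19.8% (2394 of 12092) and 21.1% (2547 of 12092) of tested genes with a GC value. No member was then past the threshold. The part of GC content in the result was not tested further.

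Because the members include genes that NF-kB itself is known to control, the 250 bases before their starts were searched on both strands for the kappa B consensus, a 10-base motif that begins with GGG and a purine and ends with pyrimidines and CC. RefSeq promoters of GRCh38.p14 were matched for 8 members, all but RELB and NFKBIE. A match lay before at least 1 start of 6 of the 8 members, and in 9.96% of all 35116 windows of that length (11.8% of genes). These shares were not matched to the members for GC content of the windows or number of starts. RELA and TRAF1 had no match in these windows, which says only that these letters are not there. The windows are shown because the members they belong to had log2 changes from -0.39 (REL) to 0.22 (NFKB2). Each is 30 bases long, read 5′ to 3′ on the strand of its gene, with the matched bases in capitals. The NFKB1 match begins 49 bases before its start (plus strand, chr4:102501300-102501329), that of REL 47 bases before (plus strand, chr2:60881518-60881547) and that of NFKBIA 81 bases before (minus strand, chr14:35404811-35404840). The pair at TNFAIP3 begins 67 bases before the start at position 137867259, which lies within the gene's stated span (plus strand, chr6:137867188-137867217), and the matches of BIRC3 begin 199 bases before (plus strand, chr11:102317275-102317304) and 135 bases before (chr11:102317339-102317368). NFKB2 has matches before the start at position 102394578, beginning 107 bases (plus strand, chr10:102394462-102394491) and 78 bases before it (chr10:102394490-102394519). Before its start at 102395705 they begin 176 bases (chr10:102395519-102395548) and 21 bases away (chr10:102395674-102395703). A match on the opposite strand reads in reverse complement here. At REL, and at NFKB2 107 and 176 bases before, the consensus was met on both strands.
NFKB1: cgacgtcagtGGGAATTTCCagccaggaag
REL: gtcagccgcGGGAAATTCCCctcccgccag
NFKBIA: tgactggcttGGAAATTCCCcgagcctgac
TNFAIP3: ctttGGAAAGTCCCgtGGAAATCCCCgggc
BIRC3, 199 bases before: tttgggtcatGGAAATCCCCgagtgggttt
BIRC3, 135 bases before: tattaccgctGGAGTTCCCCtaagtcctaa
NFKB2, 107 bases before: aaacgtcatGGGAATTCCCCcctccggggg
NFKB2, 78 bases before: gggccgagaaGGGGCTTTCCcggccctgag
NFKB2, 176 bases before: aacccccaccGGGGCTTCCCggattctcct
NFKB2, 21 bases before: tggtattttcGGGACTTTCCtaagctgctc

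By the main interval 1 of the 6 members with a match was higher (NFKB2) and 2 were lower (REL and BIRC3), beside 21.8% and 23.9% of all tested genes, while NFKB1, NFKBIA and TNFAIP3 did not differ beyond counting error. Relative to genes of like GC content NFKB2 (0.12), NFKB1 (-0.02), NFKBIA (-0.04) and TNFAIP3 (-0.16) had intervals that hold 0. By that measure none of the 6 was higher and 2 were lower (REL and BIRC3), beside 19.8% and 21.1% of tested genes with a GC value. Whether members with and without a match differ was not tested. RELA and TRAF1, with no match, had log2 changes of 0.16 and 0.09, and of 0.06 and 0.05 relative to such genes, both with intervals that hold 0.

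The other genes of the pathway were described by 6 lists of 101 genes, of which 85 were tested. Of these 85, 2 were higher and 1 was lower past the threshold, beside 9.37% and 9.48% of all tested genes. Of the 79 with at least 200 counts, 0 were higher and 1 was lower, beside 3.44% and 4.35% of all genes with as many counts, and by the interval 27 were higher and 21 lower, beside 25.7% and 28.6%. By the interval 28 (32.9%) of the 85 were higher and 21 (24.7%) lower, beside 21.8% and 23.9%. The counts of each list below are to be read against these shares. Their median log2 change was 0.03. Relative to genes of like GC content, as for the members, 19 of the 85 were higher and 20 lower, beside 19.8% and 21.1%, and the median was -0.01. The 7 further IkB proteins and their regulators had a median of 0.10, with 3 higher and 0 lower by the interval. Relative to genes of like GC content the median was 0.0017, with 0 higher and 1 lower. NFKBIB, for IkBβ, was the most abundant with a TPM of 126 and 125. BCL3, a nuclear IkB protein, had a TPM of 65 and 66 and a log2 change of 0.10 (0.03 to 0.18), NKIRAS2 one of 0.13 (0.06 to 0.20) and NFKBIL1 one of 0.15 (0.03 to 0.27). These 3 were at -0.01, 0.06 and 0.03 relative to genes of like GC content, with intervals that hold 0.

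In the IKK complex and its upstream kinases 7 of 13 genes were higher and 5 lower by the interval, none past the threshold, with a median of 0.10. Relative to genes of like GC content 3 were higher and 4 lower, with a median of 0.04. The log2 changes ran from -0.22 for CHUK to 0.29 for the kinase MAP3K8, the latter named after its values were seen. CHUK, which encodes IKKα, had 4830 and 3823 counts and a log2 change of -0.22 (-0.28 to -0.16). IKBKB and IKBKG of the same list, named after their values were seen, were at 0.15 (0.06 to 0.25) and 0.16 (0.04 to 0.28). Relative to genes of like GC content these 2 were at 0.11 (0.02 to 0.21) and 0.04 (-0.08 to 0.16). TBK1, an IKK-related kinase, was at -0.20 (-0.28 to -0.13), and TAB2, an adaptor of the kinase TAK1, at -0.18 (-0.24 to -0.12). CHUK was at -0.09, TBK1 at -0.14 and TAB2 at -0.09 relative to genes of like GC content. MAP3K8, with 249 and 282 counts, was then at 0.34, past the threshold, but its interval (0.09 to 0.59) reaches below the threshold. CHUK (TPM 64 and 53) and TAB2 (55 and 47) were also the most abundant of this list.

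Of 18 receptors of the TNF, Toll and interleukin-1 families 9 were tested. TNFRSF1B, for TNF receptor 2, was the most abundant with a TPM of 395 and 409 and a log2 change of 0.11 (0.08 to 0.13). TNFRSF1A, for TNF receptor 1, had 79 and 84, and a log2 change of 0.15 (0.09 to 0.22). TLR3, a sensor of double-stranded RNA, was at -0.26 (-0.43 to -0.10). TNFRSF1B was at -0.01 (-0.04 to 0.01), TNFRSF1A at 0.08 and TLR3 at -0.17 relative to genes of like GC content. By the interval 4 receptors were higher and 1 lower, with a median of 0.11. The median was 0.04 relative to genes of like GC content, with 2 higher and 1 lower, and 0.0084 over receptors with at least 200 counts. TNFRSF9, for 4-1BB, named after its values were seen, was the receptor past the threshold, with 33 and 49 counts (0.65, 0.02 to 1.37). CD27, CD40, LTBR, TLR2, TLR4, TLR7, TNFRSF18 and TNFRSF25 had no more than 3 counts in each library, a floor of 0.0641 CPM in the control and 0.0695 CPM with PPMX-T003.

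All 18 adaptors and ubiquitin ligases were tested, with a median of 0.01, 2 higher and 4 lower by the interval and 0 past the threshold. Relative to genes of like GC content the median was -0.04, with 2 higher and 5 lower. BIRC2, for cIAP1, the closest relative of BIRC3 in this list, had 2673 and 2068 counts and a log2 change of -0.25 (-0.34 to -0.17), near that of BIRC3. XIAP, of the same family, was at -0.20 (-0.27 to -0.12) and TRAF5, an adaptor of TNF receptors, at -0.20 (-0.29 to -0.12). The GC content of BIRC2 (42.3%), XIAP (39.1%) and TRAF5 (41.9%) lies where the median gene was lower, and relative to such genes they were at -0.16, -0.07 and -0.11, where the interval of XIAP held 0 (-0.15 to 0.0024). UBE2V1 (TPM 324 and 298), a partner of the ubiquitin-conjugating enzyme UBE2N, and the kinase IRAK1 (189 and 190) were the most abundant.

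Among 13 deubiquitinases and other brakes 3 were higher and 4 lower by the interval, with a median of -0.03 and 0 past the threshold. The median was also -0.03 relative to genes of like GC content, with 2 higher and 4 lower, but -0.10 with the deposited TPM. ITCH, a ubiquitin ligase that works with A20, had 10671 and 8366 counts and a log2 change of -0.23 (-0.28 to -0.19). OTULIN, which removes linear ubiquitin chains, was at -0.22 (-0.28 to -0.16) and N4BP1 at -0.21 (-0.27 to -0.16). Relative to their GC groups these were at -0.17, -0.20 and -0.17. COMMD1, named after its values were seen, was the highest of the list at 0.26 (0.10 to 0.43), and at 0.28 relative to its GC group. TRAF3IP3 (TPM 92 and 86) and ITCH (77 and 64) were the most abundant.

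Of 32 further textbook targets 25 were tested, with a median of 0.03, 9 higher and 7 lower by the interval. Relative to genes of like GC content 10 were higher and 5 lower, with a median of 0.02, and with the deposited TPM the median was -0.02. PLAU, which encodes urokinase, was the target past the threshold downward, with 491 and 305 counts (-0.57, -0.78 to -0.36). JUNB, an AP-1 subunit, was at 0.31 (0.22 to 0.41) and GADD45B at 0.25 (0.19 to 0.32), both short of the threshold. PLAU was at -0.61, JUNB at 0.20 and GADD45B at 0.16 relative to genes of like GC content. The chemokine CCL3 had the highest TPM, 4622 and 4941, followed by IL32 with 2644 and 2812. CXCL10, named after its values were seen, was past the threshold upward with 36 and 48 counts, but its interval held 0 (0.51, -0.12 to 1.20). Relative to genes of like GC content CXCL10 was at 0.63, with an interval that just left out 0 (0.0042 to 1.32). CSF2, CXCL8, IER3, PTGS2, TNFAIP2 and VCAM1 were not detected above the same floor of 3 counts.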

How the data were processed

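Per the submitters' processing notes, the tools were Trimmomatic 0.38, HISAT2 2.2.0, StringTie 2.1.3b and edgeR 3.17 with build hg38, the last named by the authors for the comparison. The authors deposited read counts per gene of an NCBI RefSeq annotation. Counts from 1000 upwards carry commas, which were removed. The FPKM and TPM that the authors deposited are rounded to whole numbers and were treated as a score. Whether strand was used in counting is not given in the sources used here.

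Changes were computed with numpy 2.4.6, scipy 1.17.1 and pandas 2.3.3 under Python 3.11.15, and figures drawn with matplotlib 3.10.9. Counts were scaled by TMM (trimming 30% by log ratio and 5% by mean level). Log2 CPM used a prior count of 2. Genes with at least 20 summed counts were tested, and the threshold was 1.25-fold, which is 0.32 on the log2 scale. No count model was fitted with 1 library per condition. GC content is the median over the protein-coding transcripts of a gene in GENCODE release 29, known for 88.5% of tested genes and all 10 members. Scripts were tested on simulated data with counting error only, which cannot show how the intervals behave with differences between dishes.

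The members and lists were chosen with earlier results of these data known. Named were all members and, in each other list, the 3 genes whose interval bound lies farthest from 0, the 2 with the highest control TPM, and genes with no more than 3 counts in both libraries where 8 or fewer. Alternatives were other scalings, prior counts, filters, folds, deposited TPM and FPKM, and subtraction of the median change of genes of like GC content (10 groups). Marker genes that are not named enter the counts and sums of their lists, and the results of 2 genes are not reported here.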

Additional observations from a re-analysis of the deposited data

How the results depend on the processing

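No paired analysis was possible because there is a single library on each side, and leaving out a replicate was not run for the same reason. The filters cannot alter a member's own change, and the 3 scalings shift all genes alike, so neither tests it. Under the 6 other alternatives (prior counts, deposited TPM and FPKM, GC groups), 50 of 60 member changes stayed within the main counting interval. The 10 that did not concern BIRC3, NFKB2, REL, RELA, TNFAIP3 and TRAF1. REL, BIRC3 and TNFAIP3 stayed below 0 and RELA and NFKBIE above it. NFKB1, NFKBIA and RELB changed sign, and NFKB2 and TRAF1 were at 0 with a rounded deposited measure.

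The number of members lower was 0 with TPM, 2 with FPKM (pseudocount 1), 0 after subtraction of the GC group's median and 0 with the longest transcript in its place, a setting chosen after seeing the data. At 1.1-fold 3 members were higher and 2 lower, and at 1.5-fold and 2-fold 0 were lower. Among all tested genes, 778 were higher and 1109 lower with TPM, and 679 higher and 698 lower with FPKM. Of the 12092 with a GC value, 840 were higher and 883 lower after subtraction of the group's median. With at least 1, 100 and 200 counts, 3498, 551 and 358 were higher and 3384, 628 and 453 lower. At 1.1-fold, 1.5-fold and 2-fold, 3280, 538 and 173 were higher and 3447, 525 and 188 lower. Filters and folds change these numbers by construction.

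The members' median was -0.0200 with TPM, 0.0000 with FPKM, -0.0278 after subtraction of the GC group's median and -0.0284 with the longest transcript. Of 72 list medians under alternatives, 42 kept their sign and stayed within 1.5 times the main value, and 30 did not. The following values are in the order TPM, FPKM, GC group, longest transcript. Medians were 0.0217, 0.0265, 0.0017 and -0.0020 for the other IkB proteins, 0.0525, 0.0000, 0.0426 and 0.0350 for the IKK list, 0.0000, 0.0000, 0.0404 and 0.0153 for the receptors, -0.0513, 0.0000, -0.0420 and -0.0497 for the adaptors, and -0.0205, 0.0000, 0.0180 and -0.0085 for the further targets. For the brakes they were -0.0962 with TPM, 0.0000 with FPKM and -0.0165 with the longest transcript. The adaptors were at 0.0020 with median-of-ratios and 0.0237 with upper-quartile scaling, and the brakes at -0.0173 with the latter. The further targets were at 0.0053 with each other filter, and the receptors at 0.0084 with at least 200 counts. The cause was not tested. RELB, with the fewest counts, is the member that depth limits most.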

Other observations

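Markers of other cell types were read beside the NK cell markers. Of 11 T cell markers 5 were tested, with CD3E highest at a TPM of 673 and 698, while CD3D, CD3G, CD5, CD8A and CD8B had no more than 3 counts in each library. TRBC1 (TPM 330 and 385) had a log2 change of 0.28 (0.21 to 0.34) and TRBC2 one of 0.26 (0.19 to 0.34). CD6 and TRAC, named after their values were seen, were at -0.25 (-0.43 to -0.07) and -0.08 (-0.18 to 0.03). Relative to genes of like GC content CD6 was at -0.37 (-0.55 to -0.19), past the threshold, and TRAC at -0.06. TRBC1 and TRBC2 were at 0.21 and 0.22 by that measure. The list summed to 593.6 CPM in the control and 650.5 CPM with PPMX-T003. Of the B cell markers BLK, CD22, CD79B and MS4A1 were not detected, CD79A had 14 and 12 counts, and PAX5 had 169 and 78 counts, a log2 change of -0.98 (-1.40 to -0.60).

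Of 10 monocyte and macrophage markers CD163, LYZ, MARCO and VCAN were not detected, and 5 were tested. Of these 5, 1 was higher and 2 were lower past the threshold, beside 9.37% and 9.48% of all tested genes. By the interval 1 was higher and 1 lower, beside 21.8% and 23.9%. S100A9 was the most abundant with a TPM of 393 and 388, S100A8 had 19 and 15 and a log2 change of -0.36 (-0.71 to -0.03), and CD68 had 188 and 268 counts, a log2 change of 0.62 (0.35 to 0.91). CSF1R and CD14, named after their values were seen, had 22 and 9 counts (-1.02, -2.48 to 0.0039) and 0 and 7 counts. Relative to genes of like GC content CSF1R was at -1.12 (-2.57 to -0.09), which leaves out 0. By that measure 1 of the 5 was higher and 2 were lower, beside 19.8% and 21.1% of tested genes with a GC value. The list summed to 113.3 and 116.5 CPM. The erythroid markers AHSP, ALAS2, HBA1, HBA2 and HBB and the hepatocyte and serum markers ALB, APOA1, APOB, SERPINA1 and TTR had 0 counts in both libraries.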
